A study of Mus musculus with 8 samples.

Results

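The genes described here are 43 genes of the NRF2 and antioxidant system, grouped by gene function. The list was chosen with earlier results of these data known. NRF2, encoded by Nfe2l2, is the transcription factor that drives genes against oxidants and electrophiles. KEAP1 holds it in the cytoplasm for degradation until reactive molecules modify KEAP1, and free NRF2 then enters the nucleus and binds antioxidant response elements together with small MAF proteins. Its targets and their partners make glutathione and thioredoxin, remove peroxides, conjugate electrophiles, store iron and supply NADPH, the electron donor for these reactions. Fibroblasts in culture meet oxidants from their own mitochondria and from the medium, and primary mouse fibroblasts are known for their sensitivity to atmospheric oxygen.

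Of the 43 genes, 37 had at least 1 probe set annotated to that gene alone. The probe sets found for Prdx1 (5 of them) also name a second gene, and no probe set annotated to Prdx5, Prdx6, Sod3, Gsta3 or G6pdx alone was used here. Of the 37 genes, 35 had a mean signal at or above the floor of 6.05 on the log2 scale and were tested, among 9515 genes tested in all. Slc7a11 and Aox1 lay under the floor. Where a gene had several probe sets, the one with the brightest mean over the 8 arrays stands for it.

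RNA came from primary mouse embryonic fibroblasts (MEFs), which are cells taken from embryos and not immortalised. WT lines carry intact cryptochromes, and Cry DKO lines are Cry1-/- and Cry2-/-, lacking both cryptochromes, whose proteins are repressors in the circadian clock. Each genotype had 4 independent lines and 1 array per line. All lines came from embryos backcrossed more than 7 times from BL6/129 stock towards C57BL/6J, grew without synchronisation in DMEM/F10 with 10% serum at 3% oxygen, and received no treatment. The labels name neither the age nor the sex of the embryos.

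Values are log2 signals as deposited, and differences are Cry DKO minus WT on that scale with the standard error (SE) or 95% interval from limma, a linear model whose error estimate borrows information across genes. A gene is said to have risen or fallen where its Benjamini-Hochberg adjusted p over all 9515 genes was under 0.05. The targeted genes did not separate the genotypes on this array. Cry1 ran from 6.42 to 7.27 in WT and from 5.84 to 6.50 in Cry DKO lines (difference -0.50, limma adjusted p = 0.168), and Cry2 from 6.97 to 7.34 and from 6.64 to 7.12 (-0.34, 0.132). Whether their probes lie in the deleted parts is not known here, so these values do not check the labels, and WT and Cry DKO mean the lines so labelled. Of the fibroblast markers 8 of 12 were above the floor, with vimentin (Vim) at 14.03 ± 0.08 (SD, n = 4) in WT lines and 13.96 ± 0.04 in those of Cry DKO, while Pdgfra, Dcn and Lum lay under the floor. None of the 8 passed in limma, and 2 were at an unadjusted p under 0.05 (25%, against 25.3% of all tested genes). All 8 differences were negative (100%, against 51.5%), from -0.23 for Thy1 to -0.06, with a median of -0.11. Markers of other cells were measured too. All 20 macrophage and blood cell markers were above the floor and 11 of them rose (55%, against 4.95% of all tested genes). The mean of that list ran from 8.02 to 8.64 in WT and from 8.65 to 9.65 in Cry DKO lines. All 14 tested proliferation genes rose (100%, against 4.95%). The mean of that list ran from 9.50 to 9.67 in WT and from 10.00 to 10.12 in Cry DKO lines. In bulk RNA a change in the number of cells of 1 type and a change in RNA per cell cannot be told apart. Of the other marker lists, 1 of 8 endothelial, 2 of 7 epithelial and 2 of 7 adipocyte markers were above the floor. None of these 5 passed in limma, and Egfl7 and Krt18 were at an unadjusted p under 0.05, against 25.3% of all tested genes. No erythroid or liver marker was above the floor, with 2 of 9 and 2 of 6 having a probe set.

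**Figure D1:**
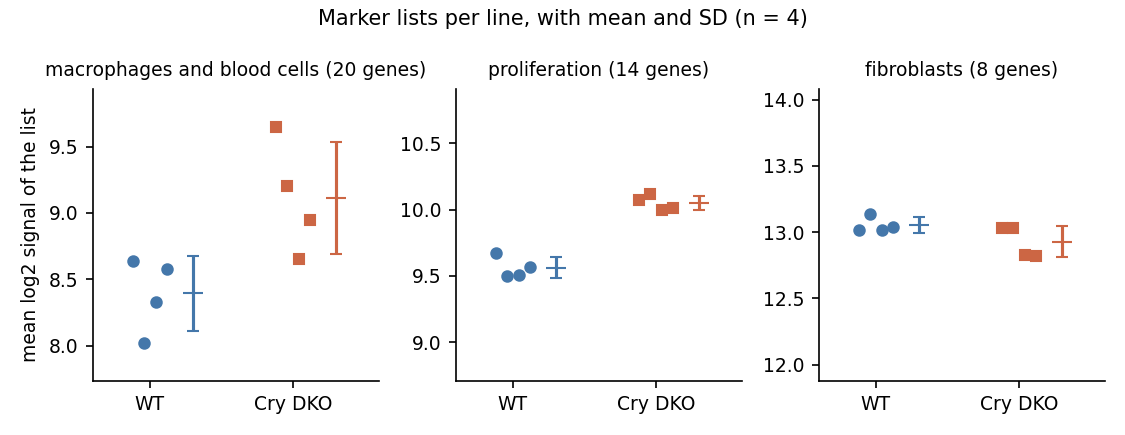
Mean log2 signal of the macrophage and blood cell, proliferation and fibroblast marker lists in each line (circles WT, squares Cry DKO, replicates 1 to 4 from left to right), with mean and SD beside the points. The macrophage list lies at 8.65 to 9.65 in Cry DKO lines and at 8.02 to 8.64 in WT lines. Neither the macrophage nor the proliferation list overlaps between genotypes.

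The promoters of the genes are shown first, because NRF2 acts through the antioxidant response element (ARE) and the CLOCK and ARNTL pair, which cryptochromes repress, acts through the E-box. Promoter windows of RefSeq (assembly GRCm38.p6) were found for 36 of the 43 genes. The 250 bases before each start were searched on both strands for the ARE core, written TGACNNNGC or TGAGNNNGC, and for the E-box CACGTG, which reads the same on both strands. An ARE core was present in 12 of the 46 windows (26.1%), against 23% of all 32851 windows, and a canonical E-box in 2 (4.35%), against 6.02%. Neither motif was therefore much more frequent near these starts than near others, and a match is a string of letters, not a bound site. The 3 windows printed first hold ARE cores (capitals) beside the regulator Nfe2l2 and the targets Srxn1 and Gstp1, and the other two hold the only E-boxes of the list (capitals), in Selenoh and Prdx4. The sequences run 5′ to 3′ on the strand of the gene and end at the base before its start.
Nfe2l2, chr2:75704664-75704913, minus strand: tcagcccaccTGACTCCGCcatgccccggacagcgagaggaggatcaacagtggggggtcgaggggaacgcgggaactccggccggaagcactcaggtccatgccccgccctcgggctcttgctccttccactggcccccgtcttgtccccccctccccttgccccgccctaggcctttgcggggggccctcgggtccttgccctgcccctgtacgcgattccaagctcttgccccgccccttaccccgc
Srxn1, chr2:152105274-152105523, plus strand: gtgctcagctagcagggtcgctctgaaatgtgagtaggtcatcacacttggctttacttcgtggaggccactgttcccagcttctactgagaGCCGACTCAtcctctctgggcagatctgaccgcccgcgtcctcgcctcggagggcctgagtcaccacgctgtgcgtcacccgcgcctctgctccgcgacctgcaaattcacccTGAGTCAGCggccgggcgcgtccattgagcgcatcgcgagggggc
Gstp1, chr19:4037913-4038162, minus strand: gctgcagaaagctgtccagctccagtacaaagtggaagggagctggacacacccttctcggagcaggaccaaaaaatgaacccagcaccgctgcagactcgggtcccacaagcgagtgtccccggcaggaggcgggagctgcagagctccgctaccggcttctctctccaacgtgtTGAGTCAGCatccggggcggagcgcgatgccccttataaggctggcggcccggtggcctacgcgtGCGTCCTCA
Selenoh, chr2:84670709-84670958, minus strand: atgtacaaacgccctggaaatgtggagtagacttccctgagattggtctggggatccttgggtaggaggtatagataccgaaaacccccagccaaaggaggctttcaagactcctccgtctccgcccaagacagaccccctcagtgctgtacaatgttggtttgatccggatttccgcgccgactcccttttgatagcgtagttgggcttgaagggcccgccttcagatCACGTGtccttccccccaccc
Prdx4, chrX:155338461-155338710, minus strand: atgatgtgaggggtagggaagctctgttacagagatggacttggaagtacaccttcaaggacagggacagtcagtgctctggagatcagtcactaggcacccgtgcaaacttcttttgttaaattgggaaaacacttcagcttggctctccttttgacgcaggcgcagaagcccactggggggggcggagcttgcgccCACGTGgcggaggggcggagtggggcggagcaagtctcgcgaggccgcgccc
The Srxn1 and Gstp1 windows each hold TGAGTCAGC, 45 and 74 bases before the start, and these letters contain the AP-1 site TGAGTCA, so both motifs overlap there. The Nfe2l2 window holds TGACTCCGC, 240 bases before the start. In Selenoh the E-box begins 21 bases before the start and in Prdx4 52 bases before it.

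The antioxidant genes as a whole changed about as often as other genes. Of the 35 tested genes 1 rose, Selenoh, and 2 fell, Nfe2l2 and Gpx7, which is 8.57% against 9.17% of all tested genes (4.95% higher and 4.22% lower). In 6 of the 35 (17.1%) WT and Cry DKO lines did not overlap, against 16.8% of all tested genes. The median difference was -0.06, against -0.01 over all tested genes, and 23 of 35 differences were negative (65.7%, against 51.5%). The differences ran from -0.53 for Gsta4 to 0.39 for Selenoh. For 30 of the 35 the 95% interval lay inside -0.5 to 0.5 (85.7%, against 79.6% of all tested genes), so a change of that size lay outside the interval for most of the list. Leaving out 1 line at a time gave 1 gene higher in each of 8 fits and between 0 and 2 lower.

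**Figure D2:**
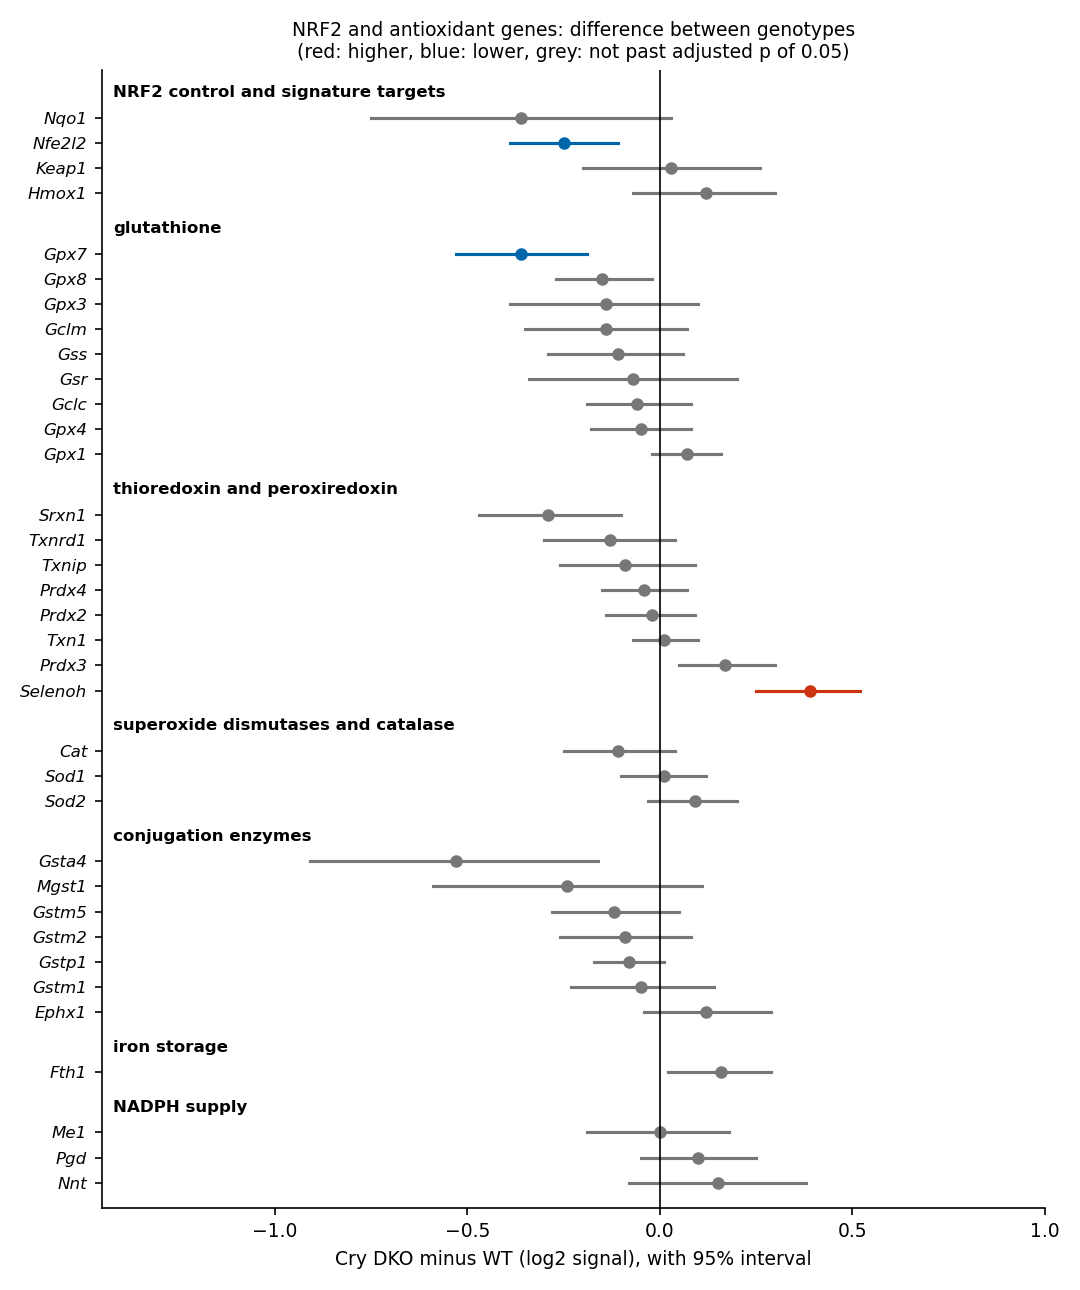
Difference between genotypes (Cry DKO minus WT, log2 signal) for the 35 tested genes by role, with points for the estimate and bars for the 95% interval from limma. Selenoh (red, 0.39) lies above 0, Nfe2l2 and Gpx7 (blue, -0.25 and -0.36) lie below it, and the other points did not pass an adjusted p of 0.05.

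Of the 4 NRF2 control genes and signature targets 1 passed (25%, against 9.17% of all tested genes). It was the gene for NRF2 itself, which fell by a small amount. Nfe2l2 read 10.36, 10.44, 10.45 and 10.47 in the 4 WT lines and 10.06, 10.13, 10.31 and 10.24 in the 4 Cry DKO lines. All 4 Cry DKO lines lay below the lowest WT line. The WT mean was 10.43 ± 0.05 (SD, n = 4) and the Cry DKO mean 10.18 ± 0.11. The difference was -0.25 (SE 0.06, 95% interval -0.39 to -0.11) and passed at a limma adjusted p of 0.0373. This call is close to the threshold. It held without Cry DKO replicate 3 or 4 (limma adjusted p = 0.0331 and 0.0415) and ended without WT replicate 1, 2, 3 or 4 (0.0546, 0.0865, 0.0902 and 0.084) or Cry DKO replicate 1 or 2 (0.0791 and 0.0828). Adding the macrophage list mean to the model, which itself differs between the genotypes, gave -0.10 (SE 0.09), and adding the proliferation list mean gave 0.19 (SE 0.26), a change of sign within its error.

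Keap1, the sensor that targets NRF2 for degradation, read 8.23, 7.96, 8.30 and 8.45 in WT and 8.37, 8.33, 8.12 and 8.22 in Cry DKO lines. The Cry DKO lines lay inside the WT range, and the difference was 0.03 (95% interval -0.20 to 0.26, limma adjusted p = 0.909). A second probe set of Keap1 gave -0.17, which did not pass either, so the sign for Keap1 depends on the probe set.

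Nqo1, the quinone reductase most used as a readout of NRF2, read 7.29, 7.24, 7.73 and 7.78 in WT and 6.73, 7.37, 7.46 and 7.04 in Cry DKO lines. The lowest values were those of Cry DKO lines 1 and 4, and lines 2 and 3 fell within the WT range. Its difference of -0.36 had an interval from -0.75 to 0.03 and did not pass (limma adjusted p = 0.238), and its within-group SD of 0.31 was the widest among the tested genes of the list. Hmox1, heme oxygenase, which breaks down heme and is shared by NRF2 and BACH1, read 9.37, 9.25, 9.53 and 9.49 in WT and 9.68, 9.37, 9.61 and 9.45 in Cry DKO lines. The groups overlapped, with a difference of 0.12 (-0.07 to 0.30, limma adjusted p = 0.437).

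Of the 9 tested genes grouped here under glutathione, which include all peroxidases of the Gpx family in the list, 1 fell (11.1%, against 9.17% of all tested genes passing in either direction). Of the 9 differences 8 were negative (88.9%, against 51.5%), with a median of -0.11 against -0.01 over all tested genes. Gpx7, a peroxidase of the endoplasmic reticulum that helps oxidative protein folding, read 9.80, 10.04, 9.86 and 9.97 in WT and 9.43, 9.67, 9.49 and 9.65 in Cry DKO lines. Every Cry DKO line lay below every WT line. The WT mean was 9.92 ± 0.11 (SD, n = 4) and the Cry DKO mean 9.56 ± 0.12, with -0.36 as their difference (SE 0.08, interval -0.53 to -0.19, limma adjusted p = 0.0175). The call held in 7 of the 8 fits that leave out 1 line and ended without WT replicate 2 (limma adjusted p = 0.0509). With the macrophage list mean in the model the difference was -0.27 (SE 0.12), and with the proliferation list mean -0.16 (SE 0.34). Gpx8, the related peroxidase of the same compartment, had a difference of -0.15 (SE 0.05) that did not pass (limma adjusted p = 0.127).

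The selenium-dependent peroxidases of the list did not pass. Gpx1, the main cytosolic glutathione peroxidase, read 11.91, 11.92, 11.85 and 11.90 in WT and 11.96, 12.02, 11.93 and 11.95 in Cry DKO lines. The groups did not overlap, but the gap was small and the difference of 0.07 did not pass (interval -0.02 to 0.16, limma adjusted p = 0.336). Gpx4, which reduces lipid hydroperoxides and protects from ferroptosis, had a difference of -0.05 (-0.18 to 0.08), and the secreted Gpx3 one of -0.14 (-0.39 to 0.10).

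The enzymes that make and recycle glutathione did not pass. Gclc and Gclm, the catalytic and modifier subunits of the rate-limiting ligase, had differences of -0.06 (-0.19 to 0.08) and -0.14 (-0.35 to 0.07). Their second probe sets gave 0.08 and 0.06, so the sign of each depends on the probe set. Gss, glutathione synthetase, had -0.11 (-0.29 to 0.06), and Gsr, the reductase that restores reduced glutathione, had -0.07 (-0.34 to 0.20). Slc7a11, the cystine importer, lay under the floor and was not tested. Its means were 5.63 ± 0.34 (SD, n = 4) for WT and 5.65 ± 0.32 for Cry DKO. In a fit without the floor its difference was 0.01 (-0.46 to 0.49).

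Of 8 tested genes of the thioredoxin and peroxiredoxin system 1 rose (12.5%, against 9.17% of all tested genes passing in either direction). Selenoh, a selenoprotein of the nucleolus with a thioredoxin-like fold, read 9.67, 9.60, 9.49 and 9.46 in WT and 9.90, 9.99, 9.94 and 9.95 in Cry DKO lines. The Cry DKO lines were tightly grouped, and each lay above every WT line. The WT mean was 9.56 ± 0.10 (SD, n = 4) and the Cry DKO mean 9.94 ± 0.04. Selenoh thus rose by 0.39 (SE 0.06, interval 0.25 to 0.52, limma adjusted p = 0.00452). The call held in all 8 fits without 1 line (0.36 to 0.43, limma adjusted p from 0.00593 to 0.0204). With the macrophage list mean in the model the difference was as large, 0.40 (SE 0.10), and no longer passed (limma adjusted p = 0.113). Only 41 of 9515 genes passed with that mean. With the proliferation list mean in the model the difference was 0.11 (SE 0.27). In that fit 0 of 9515 genes passed in limma, against 647 at an unadjusted p under 0.05. Neither the macrophage nor the proliferation list mean overlaps between the genotypes, so neither list can be told apart from the genotype.

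Selenoh also lies within 10 Mb of Cry2 in the RefSeq gene table, as Gpx4 and Txnrd1 lie within 10 Mb of Cry1. The stock was mixed before backcrossing. An effect of the lost cryptochrome and one of the strain of the linked stretch therefore cannot be told apart for these 3 genes. How far the linked stretch reaches is not known here, and the limit of 10 Mb was a choice. Nfe2l2, which fell, lies on chromosome 2 as Selenoh does, more than 10 Mb from Cry2, and linkage was not tested for it. Of 59 tested genes within 10 Mb of Cry2 8 passed (13.6%), and of 175 near Cry1 12 passed (6.86%). Of all tested genes 9.17% passed. Selenoh and Prdx4 are the genes of the list with an E-box in the printed windows. Prdx4, the peroxiredoxin of the endoplasmic reticulum, had a difference of -0.04 (-0.15 to 0.07) on its brightest probe set. Its other probe sets above the floor gave 0.28 and 0.26, neither of which passed, so its sign depends on the probe set. Of 811 tested genes with a canonical E-box in these windows 5.18% rose, against 4.92% of 6985 without one.

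Srxn1, sulfiredoxin, which reactivates overoxidised peroxiredoxins and is a classic NRF2 target, read 8.82, 8.75, 8.78 and 8.82 in WT and 8.58, 8.67, 8.49 and 8.28 in Cry DKO lines. Every Cry DKO line lay below every WT line, but the Cry DKO lines were more spread (SD 0.17 against 0.03), and the difference of -0.29 (SE 0.08) did not pass (limma adjusted p = 0.0578). Its other probe sets gave -0.18 and -0.40. It passed without Cry DKO replicate 2 (-0.34, limma adjusted p = 0.0439) and not in the other 7 fits without 1 line. Prdx3, the mitochondrial peroxiredoxin, read 9.90, 10.02, 10.00 and 9.94 in WT and 10.05, 10.20, 10.11 and 10.18 in Cry DKO lines, again without overlap. Its difference of 0.17 (SE 0.06) did not pass (limma adjusted p = 0.0871).

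The core of the thioredoxin system did not pass. Txn1, thioredoxin, had a difference of 0.01 (-0.07 to 0.10). Txnrd1, the reductase that recharges it and an NRF2 target, had -0.13 (-0.30 to 0.04). Txnip, which binds and inhibits thioredoxin, had -0.09 (-0.26 to 0.09).

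**Figure D3:**
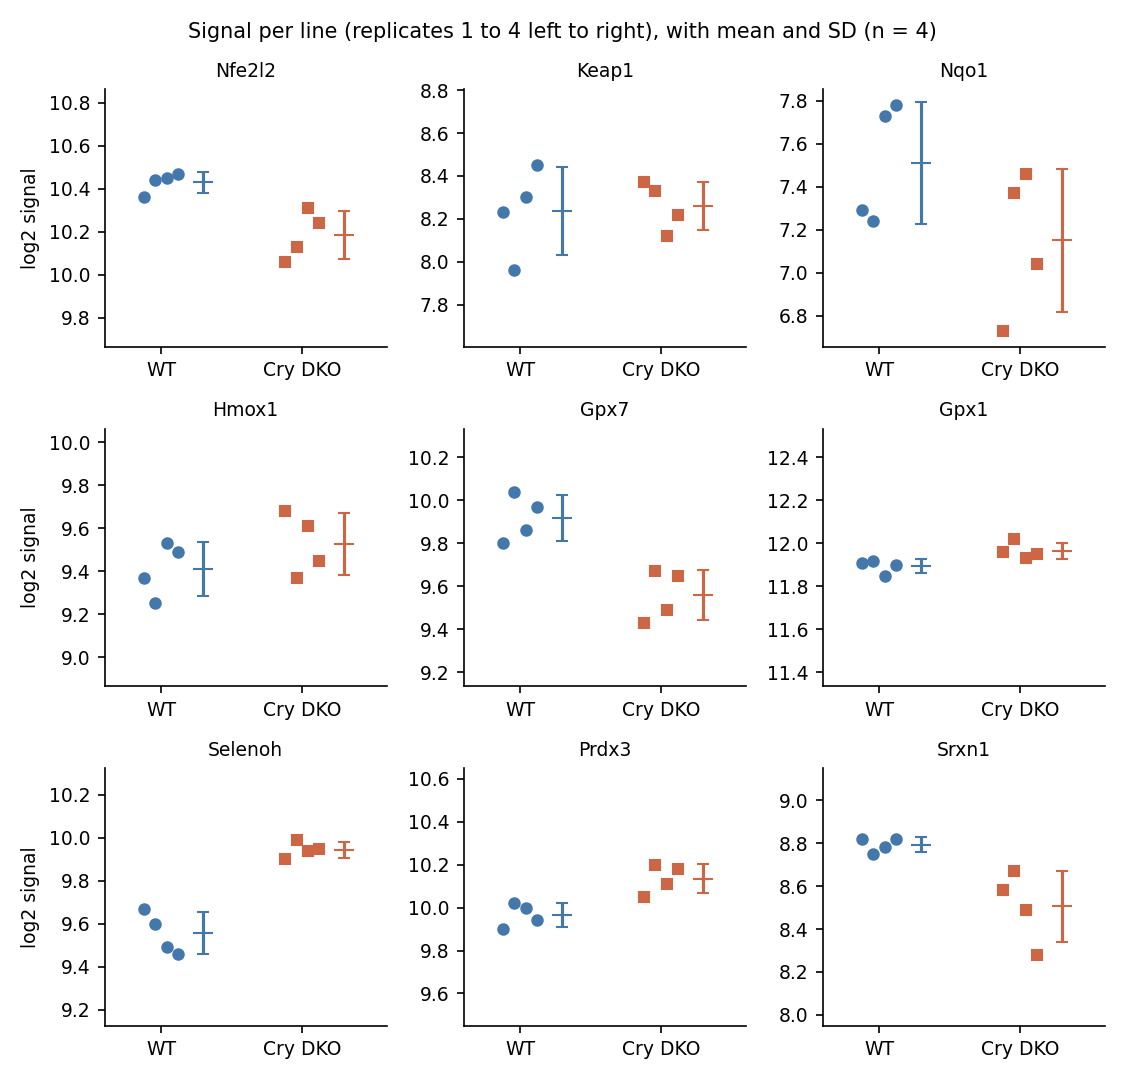
Log2 signal of 9 genes in each line (circles WT, squares Cry DKO, replicates 1 to 4 from left to right), with mean and SD beside the points and an axis of equal length in every panel. Selenoh, Prdx3 and Gpx1 are higher and Nfe2l2, Gpx7 and Srxn1 lower in all 4 Cry DKO lines than in any WT line. Of these, Selenoh, Nfe2l2 and Gpx7 passed the test, and the gap for Gpx1 is small. Keap1, Nqo1 and Hmox1 overlap.

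Prdx2, an abundant cytosolic peroxiredoxin, gave different readings from its 2 probe sets, and it is described here because of those values. The brighter one, 1418506_a_at, read 12.11, 12.06, 12.12 and 12.06 in WT and 11.93, 12.05, 12.14 and 12.14 in Cry DKO lines. Its difference was -0.02 (-0.14 to 0.09). The other, 1430979_a_at, read 9.01, 9.09, 9.96 and 9.81 in WT and 8.41, 5.47, 8.97 and 5.57 in Cry DKO lines. Cry DKO lines 2 and 4 lay below the floor on it, line 3 lay just under the lowest WT line, and line 1 lay further below it. The difference of -2.36 (SE 0.67) did not pass when every probe set was tested (limma adjusted p = 0.0662), with an SD of 1.85 among Cry DKO lines against 0.49 among WT lines. In that fit 6.81% of probe sets passed, 4 of the 61 of these genes.

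Among those 4 was a probe set of Nnt, the mitochondrial transhydrogenase that makes NADPH and is known to carry a deletion in C57BL/6J mice. Probe set 1456573_x_at of Nnt read 9.03, 9.24, 9.67 and 9.42 in WT and 9.78, 9.73, 9.86 and 9.89 in Cry DKO lines, without overlap. Its difference was 0.47 (SE 0.11, limma adjusted p = 0.0332 over every probe set). The brighter probe set that represents Nnt read 9.92, 9.84, 9.78 and 9.80 in WT and 10.24, 9.94, 10.10 and 9.66 in Cry DKO lines. Its groups overlapped and its difference of 0.15 did not pass (limma adjusted p = 0.418). Both differences were positive but unequal, and the annotation used here does not place the probes in the transcript. Of the 19 genes with several probe sets above the floor, the differences lay within 0.25 of each other in 14. The exceptions were Prdx2, Cat, Pgd, Nnt and Prdx4. In 8 of the 19 the sign differed between probe sets, so the counts of negative differences given here depend in part on the probe set chosen.

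**Figure D4:**
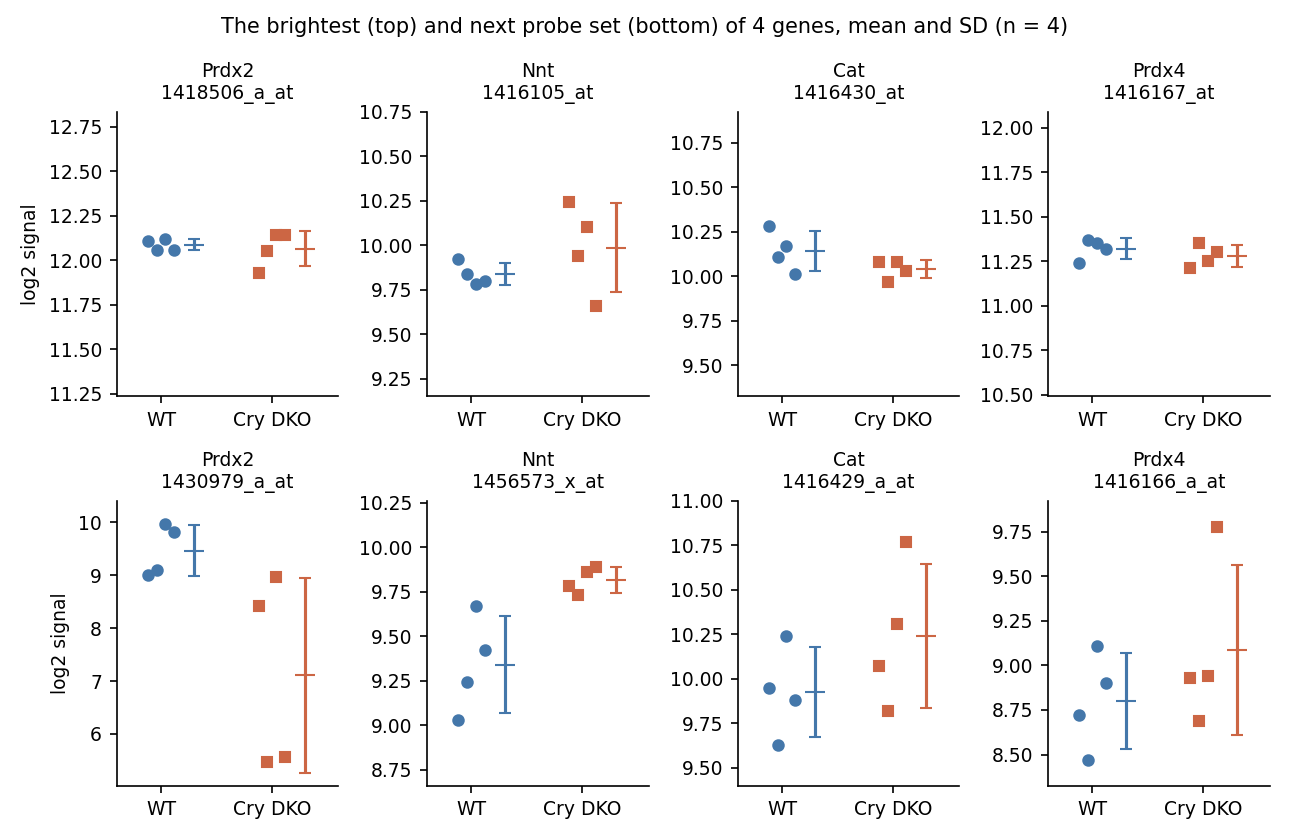
Log2 signal per line (circles WT, squares Cry DKO, replicates 1 to 4 from left to right) from the brightest probe set (top) and the next (bottom) of Prdx2, Nnt, Cat and Prdx4, with mean and SD; axes differ between panels. The second Prdx2 probe set reads 5.47 and 5.57 in Cry DKO lines 2 and 4 while the first stays between 11.93 and 12.14 in all Cry DKO lines.

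None of the 3 tested enzymes that remove superoxide and hydrogen peroxide passed in limma. Of them 0 were at an unadjusted p under 0.05, against 25.3% of all tested genes. Sod1 and Sod2, the cytosolic and mitochondrial superoxide dismutases, had differences of 0.01 (-0.10 to 0.12) and 0.09 (-0.03 to 0.20). Catalase, Cat, had -0.11 (-0.25 to 0.04) on its brightest probe set and 0.32 (SE 0.17) on the other, neither of which passed, so its sign depends on the probe set.

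Of 7 tested conjugation enzymes 0 passed in limma, against 9.17% of all tested genes. At an unadjusted p under 0.05 there was 1 (14.3%, against 25.3%), and 6 of the 7 differences were negative (85.7%, against 51.5%). Gsta4, the glutathione transferase that detoxifies aldehydes from oxidised lipids, had the lowest difference of the whole list. It read 7.10, 6.57, 6.71 and 7.14 in WT and 6.07, 6.55, 6.57 and 6.19 in Cry DKO lines. WT line 2 and Cry DKO line 3 both read 6.57, and the difference of -0.53 (SE 0.17) did not pass (limma adjusted p = 0.0758). Mgst1, the microsomal transferase, had -0.24 (-0.59 to 0.11). Gstm1, Gstm2, Gstm5 and Gstp1 had differences between -0.12 and -0.05. The Gstm genes are close relatives, and probes may read more than 1 of them. Ephx1, microsomal epoxide hydrolase, had 0.12 (-0.04 to 0.29). Aox1, aldehyde oxidase, lay under the floor at 5.79 ± 0.11 (SD, n = 4) for WT and 5.49 ± 0.32 for Cry DKO and was not tested.

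Fth1, the heavy chain of ferritin that stores iron in its oxidised form, read 13.10, 13.03, 13.02 and 13.08 in WT and 13.40, 13.20, 13.08 and 13.18 in Cry DKO lines. Only the edges of the groups met, and the difference of 0.16 (0.02 to 0.29) did not pass (limma adjusted p = 0.137). It passed after quantile normalisation, at 0.22 (limma adjusted p = 0.0441). With the macrophage list mean in the model it was -0.02 (SE 0.07), and with the proliferation list mean -0.18 (SE 0.25). Among the suppliers of NADPH, Pgd, of the pentose phosphate pathway, had 0.10 (-0.05 to 0.25) and malic enzyme, Me1, had -0.00 (-0.19 to 0.18), and neither passed. Of the 3 tested NADPH genes, Nnt included, 0 were at an unadjusted p under 0.05, against 25.3% of all tested genes.

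Most tested genes with an ARE core in the 250 bases before their start had negative differences, as did most of the list (65.7%). Of 8 tested genes with one, Nfe2l2, Srxn1, Gclm, Gstm5, Gstp1, Mgst1, Txnrd1 and Sod1, 7 had a negative difference (87.5%). Their median was -0.13. Of the 22 tested genes with a window but no core, 13 had a negative difference and the median was -0.03. Over all tested genes the medians were -0.01 for 2339 with a core and -0.00 for 5457 without. Of the 8 only Nfe2l2 passed. The split by motif was added after the values were seen and was not tested. The signature targets Nqo1 and Hmox1 are not among the 8, and a core in this window does not show binding. The split therefore does not sort NRF2 targets from other genes.

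The lines of 1 genotype also differed from each other. Cry DKO line 4 had the lowest of the 4 Cry DKO values for 13 of the 35 genes (37.1%, against 33.2% of all tested genes), among them Srxn1, Gclm, Gsr and Txnrd1. Cry DKO line 1 was also lowest for 13 (37.1%, against 25.2%), among them Nfe2l2, Nqo1, Gsta4 and Gpx7. It was also highest for 11 (31.4%, against 25.9%), and it was the line with the highest macrophage marker mean, 9.65. Among WT lines, line 1 was lowest for 12 (34.3%, against 22.9%) and line 4 highest for 12 (34.3%, against 25.6%). Within-group SDs had a median of 0.11 in the list and 0.13 over all tested genes.

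A wider set of 88 genes of the same pathways, all outside the list and also chosen with earlier results known, had 68 tested members. Of these 5 rose and 4 fell (13.2%, against 9.17% of all tested genes), and their median difference was 0.01. None of 11 other NRF2 regulators passed in limma, with 3 at an unadjusted p under 0.05 (27.3%, against 25.3% of all tested genes, a share near the background). These 3 did not pass. The autophagy adaptor Sqstm1, which binds KEAP1, had -0.16 (limma adjusted p = 0.0634), the NRF2 competitor Bach2 -0.41 (0.0714) and the NRF2 partner Mafk -0.29 (0.078).

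Of 19 other glutathione and thioredoxin genes 1 rose and 2 fell (15.8%, against 9.17% of all tested genes). Glrx, glutaredoxin, which removes glutathione from proteins, rose by 0.65 (SE 0.09, limma adjusted p = 0.00283), more than any gene of the list. Msrb1 and Msrb3, which repair oxidised methionine, fell by 0.25 (SE 0.05, limma adjusted p = 0.0139) and 0.23 (SE 0.06, 0.0382). Of 16 other conjugation and export genes 2 rose and 1 fell (18.8%, against 9.17%). Ugdh, which makes the donor for glucuronidation, rose by 0.43 (limma adjusted p = 0.00281). Nqo2, a quinone reductase, rose by 0.31 (limma adjusted p = 0.0358), and Gsto1, an omega-class transferase, fell by 0.32 (limma adjusted p = 0.0177).

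Of 10 other iron and heme genes 1 rose and 1 fell (20%, against 9.17% of all tested genes). Tfrc, the transferrin receptor that brings iron into the cell, rose by 0.38 (limma adjusted p = 0.0227). Slc48a1, a heme transporter, fell by 0.31 (limma adjusted p = 0.03). Of 12 other NADPH and pentose phosphate genes 1 rose (8.33%, against 9.17%). This was Mthfd1, a folate enzyme that also serves purine synthesis, at 0.42 (limma adjusted p = 0.00342). The other 11 did not pass, among them Pgls, of the pentose phosphate pathway, at -0.24 (-0.42 to -0.06, no overlap), and Idh2, a mitochondrial source of NADPH, at 0.23 (0.06 to 0.40).

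None of the 9 calls among these wider pathway genes held in limma with a marker list mean in the model. Few calls could hold, as 41 of 9515 genes passed with the macrophage list mean and 0 with the proliferation list mean. These 9 genes were picked as passing without a covariate. With the macrophage list mean all 9 kept their sign, 8 at an unadjusted limma p under 0.05, against 1571 of 9515 genes. Ugdh was at 0.43 (SE 0.10), Gsto1 at -0.45 (SE 0.10) and Glrx at 0.44 (SE 0.12). With the proliferation list mean 8 of the 9 kept their sign, 2 at an unadjusted limma p under 0.05 (Slc48a1 and Gsto1), against 647 of 9515 genes. Glrx was at 0.06 (SE 0.37) and Tfrc at -0.03 (SE 0.37).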

How the data were processed

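Total RNA of 8 mouse embryonic fibroblast lines (4 WT, 4 Cry DKO), labelled with biotin as cRNA made from 5 ug each, was measured on 1 Affymetrix array per line. The deposited values are log2 signals. The labels do not state how the authors summarised or normalised them, and the array medians were nearly equal, at 6.78 to 6.79. The base 2 is inferred from their range (0.0675 to 14.3). GCOS is named in the submitters' processing notes. Values brought to equal medians cannot show a change in total RNA. Replicates are separate lines, with 1 array each, so p-values measure the spread between lines.

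Of 30506 probe sets, 24838 named 1 gene, 658 several and 4949 none, and 61 were controls; 24757 of the 24838 were found by gene identifier in the table of GRCm38.p6. Single-gene probe sets with a mean under the 40th percentile (6.05) were left out. Genotypes were compared over all 9515 genes with limma 3.58.1 in R 4.3.3 (intensity trend, no covariate, Benjamini-Hochberg), and the fit was tested on simulated data. Alternatives changed the block, floor, probe set rule, normalisation, empirical Bayes step, weights, covariates, threshold or lines. The members and lists were chosen with earlier results of these data known. Values in every line are given for called genes, genes whose groups do not overlap, Nfe2l2, Keap1, Nqo1 and Hmox1. Prdx2, Nnt, Gsta4 and Fth1 were added after their values were seen. Most other measured members have their difference and interval. Gpx8 has its difference and SE, the Gstm genes and Gstp1 have a range of differences, and Aox1 has its means. Of the other pathway genes, each called one is named.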

Additional observations from a re-analysis of the deposited data

Results flagged for a closer look

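Among the probe sets of these genes above the floor, 122 groups of 4 lines were examined for a line whose gap to the nearest other, as a share of the group's range, exceeded Dixon's 95% critical value, which chance gives in about 1 group in 20. There were 3 such groups, fewer than that rate would give. Cry DKO line 3 read 8.44 on probe set 1455959_s_at of Gclc, the second one of that gene, against 8.65 to 8.69 in the other Cry DKO lines. WT line 1 read 8.99 for Gsr against 8.74 to 8.78. WT line 2 read 7.83 on probe set 1451680_at of Srxn1, also a second one, against 8.20 to 8.26.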

How the results depend on the processing

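The median difference of the 35 genes stayed between -0.07 and -0.03 in all 23 alternatives. The count of genes passing in all, 873, moved substantially in 9 of the 23. It was 317 with each gene on its own spread, 41 with the macrophage list mean and 0 with the proliferation list mean in the model (647 at an unadjusted limma p under 0.05), 1436 at an adjusted p of 0.1, and 382 (without WT replicate 3) to 684 (without Cry DKO replicate 1) with 1 line left out. The genes of the list that were higher numbered 2 with the mean of all probe sets, after quantile normalisation, at an adjusted p of 0.1 and with every probe set tested. Nnt joined with the mean of all probe sets (0.31, limma adjusted p = 0.023). Those lower numbered 1 without the intensity trend (Nfe2l2 at a limma adjusted p of 0.0675), 0 with each gene on its own spread (Nfe2l2 0.0916, Gpx7 0.0725), 4 at an adjusted p of 0.1, and 0 to 2 with 1 line left out. Srxn1 also passed with the mean of all probe sets (limma adjusted p = 0.0498) and with the least variable probe set (0.0405). With either marker list mean in the model 0 of the 35 were higher and 0 lower, with 4 (macrophage, and 1571 of 9515 genes) and 3 (proliferation) at an unadjusted limma p under 0.05, against 8 (and 2406 of 9515 genes) with no covariate, and the median SE grew from 0.08 to 0.12 and 0.31.

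None of the values that changed sign passed the threshold. With the proliferation list mean the values were 0.19 for Nfe2l2, -0.51 for Keap1, 0.02 for Nqo1, -0.08 for Gpx1, 0.22 for Gpx4, 0.44 for Txnip, 0.12 for Prdx2, 0.12 for Prdx4, -0.05 for Sod2, 0.13 for Gstm1, 0.01 for Gstm2, 0.30 for Gstm5, 0.51 for Mgst1, -0.18 for Fth1, -0.40 for Pgd and -0.22 for Nnt. With the macrophage list mean they were -0.23 for Keap1, 0.06 for Gpx4, 0.08 for Prdx2, 0.02 for Prdx4, 0.05 for Gstm1, -0.02 for Fth1 and -0.00 for Pgd. With the mean of all probe sets they were -0.07 for Keap1, 0.01 for Gclc, 0.00 for Txnip, 0.17 for Prdx4, -0.03 for Sod1, 0.10 for Cat and 0.07 for Me1, and with the least variable probe set -0.17 for Keap1. Me1 gave 0.00 with arrays centred on their median and 0.03 with array weights. With 1 line left out, signs changed within the ranges of Keap1 (-0.07 to 0.10), Gsr (-0.16 to 0.06), Txn1 (-0.01 to 0.03), Prdx2 (-0.05 to 0.02), Sod1 (-0.01 to 0.04) and Me1 (-0.05 to 0.08). Apart from the change of probe set, the cause was not tested.

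Same-numbered lines of the 2 genotypes had correlated deviations from their genotype means of 0.359, 0.116, 0.231 and -0.0111, and the 12 differently numbered combinations had -0.265 to 0.118, of which 9 were negative. In each genotype 3 of 4 lines were closest to the line of the same number. Deviations from a genotype mean cancel over its lines, so positive values for some combinations bring negative ones for others. A shared replicate effect was not tested. The labels state no shared origin, so the numbers were not taken as pairs in the main fit. With the replicate number as a block 1050 genes passed, and Nfe2l2 (limma adjusted p = 0.0236), Gpx7 (0.00602) and Selenoh (0.00905) passed with no other gene of the list. The number of arrays, 8, limits the precision.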
